A study of Mus musculus with 10 samples.

Results

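The loci of 6 genes of the naive pluripotency programme, Esrrb, Tbx3, Tfcp2l1, Prdm14, Zfp42 and Sall4, were examined for binding of FLAG-tagged Nanog and of Sin3a in mouse pre-iPSCs. Each gene was represented by 1 window of build mm9, and every peak that overlapped a window by at least 1 base was taken. The 6 windows covered 690 kb and held 24 of the 110170 peaks of the 4 deposited lists, which merged into 12 of the 45707 regions of the series. All 24 peaks lay in the windows of Tfcp2l1, Zfp42 and Sall4. The windows of Esrrb, Tbx3 and Prdm14 held no peak of any list.

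The cells were partly reprogrammed derivatives of female neural stem cells of strain 129/MF1, carried an Oct4-GFP-IRES-puro reporter and grew in serum with LIF. PiggyBac vectors in which the CAG promoter drives the insert gave stably selected lines. The Nanog + Sin3a line carried both Nanog with a FLAG tag and Sin3a, the Nanog line carried the tagged Nanog plus an empty vector, and in the Sin3a line an empty vector accompanied Sin3a. FLAG was precipitated in the Nanog + Sin3a line and in the Nanog line, and Sin3a in the Nanog + Sin3a line and in the Sin3a line, with 2 replicates in each of these 4 groups. The FLAG antibody reads the Nanog transgene alone, whereas an antibody to Sin3a does not separate the transgene from the cells' own protein. The deposited peaks form 1 list for each group, with no replicate given apart, so no value could be compared with replicate spread and no test was run. The lists hold no expression values, so the state of the cells and the activity of the 6 genes were not analysed here.

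Naive pluripotency is the state of the early epiblast and of mouse embryonic stem cells in which a network of transcription factors keeps itself active. Nanog, a homeodomain protein, belongs to the core of this network, and Esrrb, an orphan nuclear receptor, is known as one of its direct targets in mouse embryonic stem cells. Tbx3 is a T-box factor and Tfcp2l1 a factor of the grainyhead-like CP2 family, and both act downstream of LIF signalling in these cells. Prdm14 is a PR-domain protein that restrains FGF signalling and DNA methylation, Zfp42 (Rex1) is a zinc-finger protein used as a marker of the naive state, and Sall4 is a spalt-type zinc-finger factor that partners with core pluripotency factors. Sin3a is the scaffold of a complex that carries histone deacetylases.

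The 250 bases before the annotated starts of Zfp42, Tfcp2l1 and Esrrb, from RefSeq on build GRCm38.p6, are shown. Only these 3 of the 6 genes had entries in the table used, and Tbx3, Prdm14 and Sall4 had none. Among the 3 genes shown, the windows ranged from 6 sites (Tfcp2l1) to none (Esrrb). Peaks are in mm9 and the promoters in GRCm38.p6, so no peak was placed on a promoter, and coordinates of the builds must not be compared. Capitals mark matches, on either strand, to the motifs TAATGG and CATTAA (with the TAAT core of homeodomain factors), ATTTGCAT (the octamer), TCAAGGTCA (Esrrb), AGGTGTGA (T-box), CCACACCC (Klf) and CACGTG (E-box).
Zfp42 (GRCm38.p6, chr8:43307010-43307259, minus strand): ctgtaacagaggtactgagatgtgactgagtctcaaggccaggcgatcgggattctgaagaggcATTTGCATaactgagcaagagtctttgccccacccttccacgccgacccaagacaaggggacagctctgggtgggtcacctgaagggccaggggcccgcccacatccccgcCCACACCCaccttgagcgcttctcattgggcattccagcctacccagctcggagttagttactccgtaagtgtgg
Tfcp2l1 (GRCm38.p6, chr1:118627695-118627944, plus strand): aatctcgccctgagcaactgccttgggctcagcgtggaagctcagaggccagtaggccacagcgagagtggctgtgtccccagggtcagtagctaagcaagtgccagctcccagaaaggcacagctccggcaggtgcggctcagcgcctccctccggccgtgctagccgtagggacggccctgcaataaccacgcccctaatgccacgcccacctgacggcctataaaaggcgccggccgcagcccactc
Esrrb, first start (GRCm38.p6, chr12:86360867-86361116, plus strand): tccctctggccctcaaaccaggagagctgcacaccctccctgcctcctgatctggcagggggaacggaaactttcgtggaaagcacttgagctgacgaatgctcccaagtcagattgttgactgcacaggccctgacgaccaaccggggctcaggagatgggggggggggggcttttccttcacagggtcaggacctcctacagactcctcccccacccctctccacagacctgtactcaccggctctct
Esrrb, second start (GRCm38.p6, chr12:86421394-86421643, plus strand): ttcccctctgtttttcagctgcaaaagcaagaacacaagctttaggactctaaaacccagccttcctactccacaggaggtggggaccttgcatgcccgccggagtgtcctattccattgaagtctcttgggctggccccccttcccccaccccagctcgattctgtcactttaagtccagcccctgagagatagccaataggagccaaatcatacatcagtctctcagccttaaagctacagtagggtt
The Zfp42 sequence held the octamer, whose first base lay 186 bases before the start, and the Klf motif, whose first base lay 75 bases before it. Of 32851 promoter sequences of the same length, 1.6% held the octamer and 3.20% the Klf motif. The Tfcp2l1 sequence and both Esrrb sequences held none of these letters. The remaining motifs occurred in 6.57% (TAATGG), 7.91% (CATTAA), 0.387% (TCAAGGTCA), 1.12% (AGGTGTGA) and 6.02% (CACGTG) of all promoter sequences. The GC content was 58.4% for Zfp42, 65.2% for Tfcp2l1, and 60.8% and 52.0% for the first and second start of Esrrb, against a median of 52.4% over all promoter sequences. These matches describe the letters of the windows and not binding.

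The FLAG lists held most of the peaks. The windows carried 7 FLAG peaks in the Nanog + Sin3a line and 11 in the Nanog line, and 2 Sin3a peaks in the Nanog + Sin3a line and 4 in the Sin3a line. Per 100 kb this was 1.01 FLAG peaks in the Nanog + Sin3a line, against 1.42 over its whole list, and 1.59 in the Nanog line, against 1.503. For Sin3a it was 0.290 per 100 kb in the Nanog + Sin3a line, against 0.712, and 0.580 in the Sin3a line, against 0.670. The windows were less dense in peaks than the genome for 3 of the 4 lists and slightly denser for FLAG in the Nanog line. With 2 to 11 peaks per list, these densities are coarse.

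**Figure D1:**
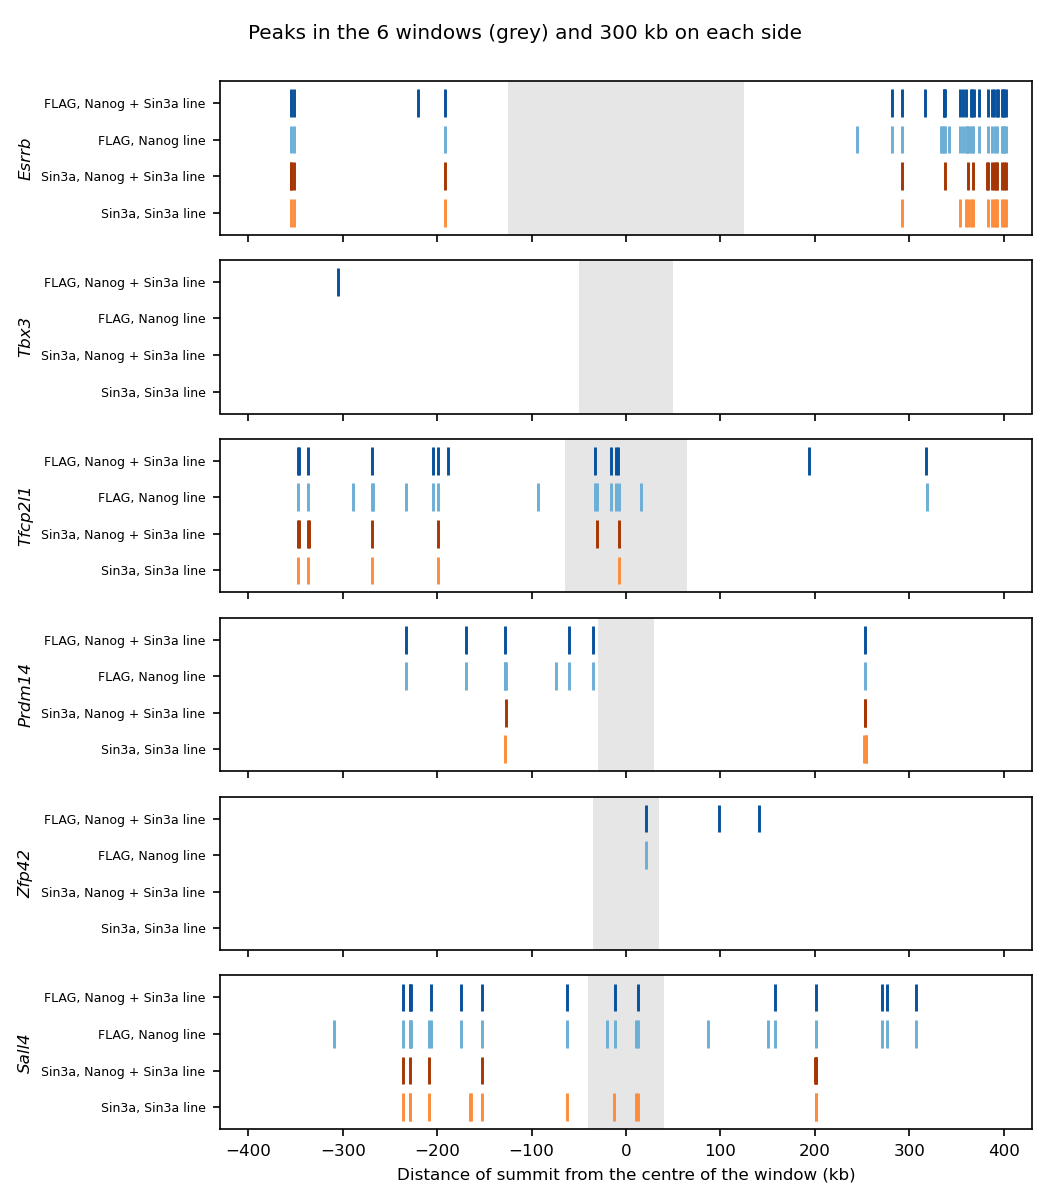
Peak summits of the 4 lists (rows) in the 6 windows (grey) and beyond their edges, plotted by distance from the centre of the window in kb; each tick is 1 peak. The grey areas of Esrrb, Tbx3 and Prdm14 hold no tick, and those of Tfcp2l1 and Sall4 hold 13 and 9.

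The Esrrb window (chromosome 12, 87.65 to 87.9 Mb) lay in a stretch without peaks in every list. The stretch between the peaks that flank it was 473 kb for FLAG in the Nanog + Sin3a line and 437 kb for FLAG in the Nanog line, and for Sin3a 484 kb in each line. Before the window the nearest peak lay 66.9 kb away for FLAG in the Nanog + Sin3a line and 66.8 kb away in the Nanog line, at a site that held a Sin3a peak in both Sin3a lists too. Its fold enrichment was 5.38 for FLAG in the Nanog + Sin3a line and 7.20 in the Nanog line. For Sin3a the fold there was 5.52 in the Nanog + Sin3a line and 3.89 in the Sin3a line. After the window the nearest peak was 156 kb away for FLAG in the Nanog + Sin3a line and 120 kb away in the Nanog line. When the genome was laid out in 250 kb windows end to end, 35.2% of 10235 windows held no peak of any list, so an empty window of this length was common. The coding genes that neighbour Esrrb are Gpatch2l and Vash1.

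The Tbx3 window (chromosome 5, 120.08 to 120.18 Mb) lay in the widest peak-free stretch of the 3 empty windows. No Sin3a peak occurred over 1.45 Mb in either Sin3a list, and no FLAG peak over 1399 kb in the Nanog line. In the Nanog + Sin3a line the nearest FLAG peak lay closer, 255 kb before the window, with a −log10 q of 5.52 and a 3.85-fold enrichment, so that its peak-free stretch was 728 kb. Gaps at least as long made up 1.63% of the gaps between neighbouring FLAG peaks in the Nanog + Sin3a line and 0.666% in the Nanog line, and 1.98% and 2.14% of the gaps between Sin3a peaks in the Nanog + Sin3a and Sin3a lines. Such gaps are long, and they covered between 25.8% and 43.0% of the span from the first to the last peak of each chromosome in the 4 lists. Of windows of 100 kb, 51.9% held no peak of any list. Tbx3 has Med13l and Tbx5, another T-box gene, as its coding neighbours.

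The Prdm14 window (chromosome 1, 13.08 to 13.14 Mb) held no peak, and 2 FLAG sites stood just outside it. One lay 4.61 kb before the window in the Nanog + Sin3a line, with its summit at 13075204, a fold of 7.76 and rank 5672 of 36286 by −log10 q. In the Nanog line the same site lay 4.64 kb before the window, with its summit at 13075198, a fold of 7.24 and rank 8394 of 38485. The next site, 29.6 kb before the window in both FLAG lists, was stronger, with a fold of 11.99 and rank 1463 in the Nanog + Sin3a line, against a fold of 8.57 and rank 3990 in the Nanog line. The nearest Sin3a peaks were much farther off, 97.6 kb before the window in the Nanog + Sin3a line and 98.2 kb before it in the Sin3a line. Of windows of 60 kb, 61.6% held no peak of any list. The coding genes beside Prdm14 are Slco5a1 and Ncoa2, and which gene these sites belong to is not given by the lists.

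Across the windows with peaks, 7 of the 12 regions held FLAG without Sin3a, 4 held both antibodies and 1 held Sin3a alone. Over all regions of the series these classes made up 57.5%, 37.2% and 5.27%. The most frequent class was FLAG in both lines without Sin3a, with 5 regions (26.9% of all regions), and 1 region, Tfcp2l1 site 5, held a peak of all 4 lists (25.7% of all regions). FLAG of the Nanog line alone marked 2 regions (16% of all regions). The other 4 regions each had a combination of their own: FLAG of both lines with Sin3a of the Sin3a line (2.87%), FLAG of the Nanog line with Sin3a of the Nanog + Sin3a line (1.01%), FLAG of the Nanog line with Sin3a of the Sin3a line (0.774%), and Sin3a of the Sin3a line alone (1.61%). Sites are numbered here along the chromosome within each window.

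The Tfcp2l1 window (chromosome 1, 120.49 to 120.62 Mb) carried 6 sites and 13 of the 24 peaks. It held 4 FLAG peaks in the Nanog + Sin3a line and 6 in the Nanog line, and 2 Sin3a peaks in the Nanog + Sin3a line and 1 in the Sin3a line. Of windows of 130 kb, 47.3% held no peak of any list, and 18.7% held at least 4 FLAG peaks of the Nanog + Sin3a line and 11.8% at least 6 of the Nanog line, and 19.6% held at least 2 Sin3a peaks of the Nanog + Sin3a line and 31.2% at least 1 of the Sin3a line. Sites 1 and 2 lay 2.45 kb apart, sites 2 and 3 14.8 kb, sites 3 and 4 5.32 kb, sites 4 and 5 2.26 kb and sites 5 and 6 23.9 kb. Clasp1 and Gli2 are the coding neighbours of Tfcp2l1.

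Site 1 of Tfcp2l1 (120521917-120522407) held the strongest FLAG peak of all 6 windows, and no Sin3a peak in either line. The authors' fold was 13.1 in the Nanog + Sin3a line, with a −log10 q of 86.9 and rank 393 of 36286, that is, within the top 1.08% of the list. In the Nanog line the fold was 7.11, with a −log10 q of 24.0 and rank 7092 of 38485, the top 18.4%. The summits stood at 120522145 in the Nanog + Sin3a line and 120522252 in the Nanog line, 107 bp apart, and 15.0% of all FLAG peak pairs were at least as far apart.

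The fold and the p-value of a peak together fix the whole number of ChIP fragments over its summit, which gives the counting error. At site 1 there were 160 fragments in the Nanog + Sin3a line (95% Poisson interval 136 to 187) and 56 in the Nanog line (42.3 to 72.7). The fragments of each list were multiplied by a factor read from its values. This factor was taken to scale the list to the depth of a control, which the sources used here do not state. The summit pileup was then 117 in the Nanog + Sin3a line and 48.6 in the Nanog line, a ratio of 2.41 (1.77 to 3.33). The backgrounds over the genome, also read from the values, were 4.76 in the Nanog + Sin3a line and 4.68 in the Nanog line. The local background expected under the summit was 8 on the same scale in the Nanog + Sin3a line and 5.97 in the Nanog line. The ratio's interval excludes 1. The intervals cover counting error only, since reads copied by PCR are not independent molecules, and each summit is the highest point of its peak. Over the 25543 FLAG peaks matched one to one between the lines with a fragment number in each list, the median ratio was 0.920, and 153 pairs (0.599%) had a ratio at least as high as site 1. Site 1 was the 1 of 7 shared FLAG sites of the windows with a pileup at least 1.5-fold higher in the Nanog + Sin3a line, against 4.97% of all pairs.

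Site 5 of Tfcp2l1 (120546464-120547462) was the region with a peak in all 4 lists. Its FLAG fold was 4.51 in the Nanog + Sin3a line, at rank 14774 of 36286, and 8.25 in the Nanog line, at rank 4945 of 38485, where it was the strongest FLAG peak of the windows. The Sin3a fold was 3.28 in the Nanog + Sin3a line, at rank 13949 of 18231, and 3.80 in the Sin3a line, at rank 12010 of 17168. The FLAG peak was thus in the stronger part of both FLAG lists and the Sin3a peak in the weaker part of both Sin3a lists. FLAG fragments numbered 48 in the Nanog + Sin3a line (35.4 to 63.6) and 60 in the Nanog line (45.8 to 77.2), a ratio of scaled pileups of 0.674 (0.452 to 1.00), an interval whose upper bound reached 1. Sin3a fragments numbered 37 in the Nanog + Sin3a line (26.1 to 51.0) and 38 in the Sin3a line (26.9 to 52.2), a ratio of scaled pileups of 1.07 (0.664 to 1.73). This was the 1 matched Sin3a pair of the windows, and it differed by less than 1.5-fold. Of all matched Sin3a pairs, 1.3% were at least 1.5-fold higher in the Nanog + Sin3a line and 3.9% at least 1.5-fold lower. FLAG and Sin3a summits lay 15 bp apart in the Nanog + Sin3a line, against a median of 82 bp over all such pairs, and 21 bp apart across the Nanog and Sin3a lines, against 75 bp.

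By −log10 q the remaining sites of Tfcp2l1 were weaker in each list. Site 4 (120544625-120544898) carried a FLAG peak in both lines, with folds of 4.54 in the Nanog + Sin3a line and 5.97 in the Nanog line, from 38 and 42 fragments. Site 3 (120539145-120539608) had FLAG folds of 3.12 in the Nanog + Sin3a line and 4.11 in the Nanog line, from 29 and 32 fragments. The ratio of scaled pileups was 0.763 (0.479 to 1.21) at site 4 and 0.764 (0.446 to 1.304) at site 3, and both intervals included 1. Site 2 (120524370-120525189) held a FLAG peak of the Nanog line (fold 2.79, 31 fragments, rank 35695 of 38485) and, for Sin3a, a peak of the Nanog + Sin3a line (fold 2.78, rank 14898 of 18231), for which more than 1 fragment number was possible. These peaks came from different lines. In the Nanog + Sin3a line, the one line with both precipitations, FLAG had no peak at site 2. Site 6 (120570874-120571072) held a FLAG peak of the Nanog line alone, with a fold of 2.62, 23 fragments and rank 38029 of 38485, the weakest FLAG peak of the windows.

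**Figure D2:**
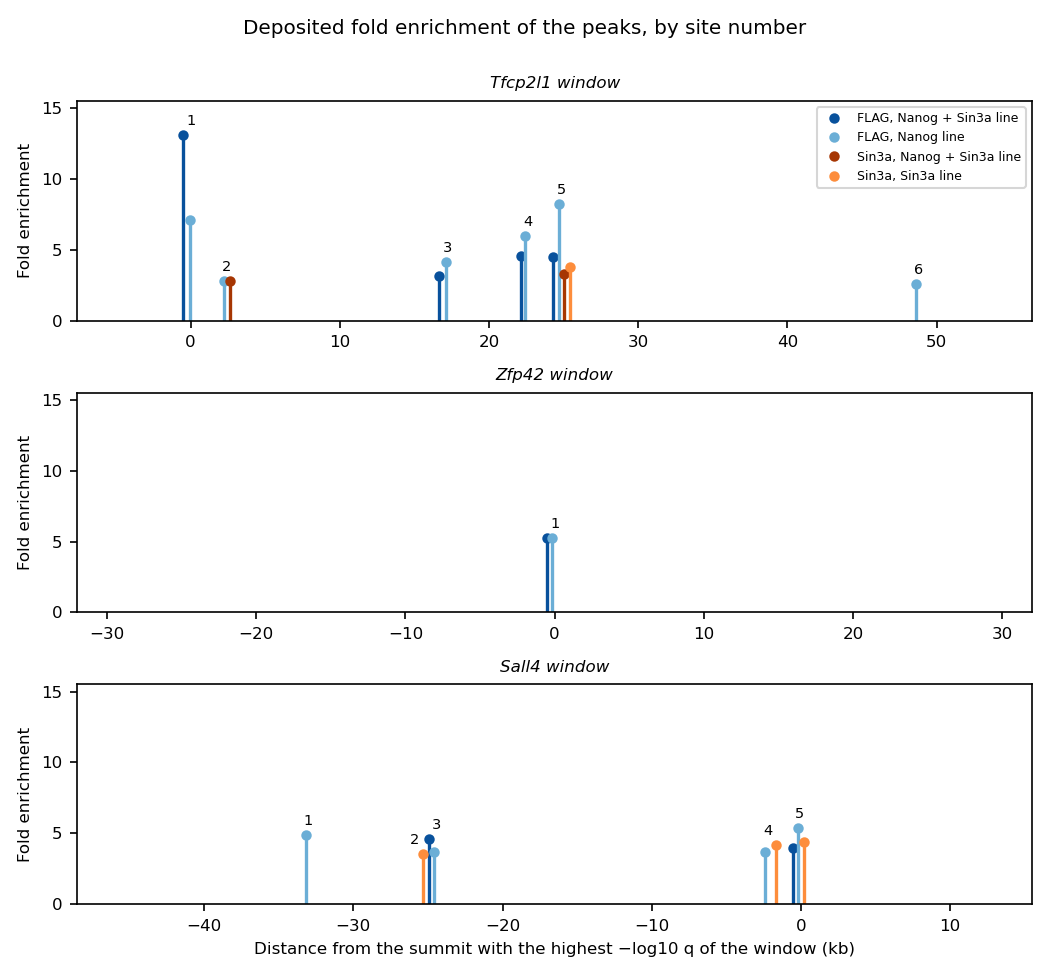
Authors' fold enrichment at the summit (vertical axis) of the 24 peaks in the windows of Tfcp2l1, Zfp42 and Sall4, by distance in kb from the summit with the highest −log10 q of each window; colours mark the 4 lists, numbers the sites, and bars are shifted slightly sideways to stay apart. FLAG at site 1 of Tfcp2l1 reaches 13.1 in the Nanog + Sin3a line, and all other peaks stay at or below 8.25.

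The Zfp42 window (chromosome 8, 44.35 to 44.42 Mb) held 1 site, at 44405933-44406288, where FLAG was called in both lines and Sin3a in neither. Its fold was 5.26 in the Nanog + Sin3a line, at rank 12922 of 36286, and 5.23 in the Nanog line, at rank 16310 of 38485. The summits, at 44406106 and 44406104, lay 2 bp apart. Fragments numbered 49 in the Nanog + Sin3a line (36.3 to 64.8) and 35 in the Nanog line (24.4 to 48.7), and the ratio of scaled pileups was 1.18 (0.749 to 1.88), an interval that included 1. No peak of any list was found in 58.8% of windows of 70 kb, at least 1 FLAG peak of the Nanog + Sin3a line in 37.7%, and at least 1 of the Nanog line in 35.8%.

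Few peaks surrounded this FLAG site. The nearest FLAG peak before the window was 1847 kb away in both lists. After the window it was 62.8 kb away in the Nanog + Sin3a line and 1424 kb away in the Nanog line. No Sin3a peak occurred over 3.52 Mb around the window in either Sin3a list, and gaps at least as long made up 0.489% of the gaps between Sin3a peaks in the Nanog + Sin3a line and 0.490% in the Sin3a line. Such gaps covered 19.7% of the span from the first to the last peak of each chromosome in the Nanog + Sin3a line and 18.7% in the Sin3a line. Of windows of 70 kb, 78.0% held no Sin3a peak of the Nanog + Sin3a line, and 78.0% none of the Sin3a line. The coding neighbours of Zfp42 are Triml2 and Adam26b.

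The Sall4 window (chromosome 2, 168.54 to 168.62 Mb) held Sin3a peaks of the Sin3a line but none of the Nanog + Sin3a line. It held 5 sites, with 2 FLAG peaks in the Nanog + Sin3a line and 4 in the Nanog line, and 0 Sin3a peaks in the Nanog + Sin3a line against 3 in the Sin3a line. No peak of any list was found in 56.3% of windows of 80 kb. At least 2 FLAG peaks of the Nanog + Sin3a line were found in 24.7% of windows of 80 kb, at least 4 of the Nanog line in 11.7% and at least 3 Sin3a peaks of the Sin3a line in 7.05%. No Sin3a peak of the Nanog + Sin3a line was found in 76.2% of all windows of this length. That share also counts windows without Sin3a peaks of the Sin3a line, of which this window held 3. Of all Sin3a peaks of the Sin3a line, 84.2% had a counterpart in the Nanog + Sin3a line. In the Nanog + Sin3a line the nearest Sin3a peaks lay 113 kb before and 160 kb after the window. Atp9a and Zfp64, a zinc-finger gene, are the coding neighbours of Sall4.

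Site 5 of Sall4 (168592308-168592986) held the strongest peaks of this window in the Nanog and Sin3a lines. The FLAG fold was 3.98 in the Nanog + Sin3a line and 5.36 in the Nanog line, with 4.42 for Sin3a in the Sin3a line. FLAG fragments numbered 30 in the Nanog + Sin3a line (20.2 to 42.8) and 34 in the Nanog line (23.5 to 47.5), a ratio of scaled pileups of 0.744 (0.440 to 1.25), and Sin3a fragments 39 in the Sin3a line (27.7 to 53.3). The FLAG summit of the Nanog line lay 294 bp from the Sin3a summit of the Sin3a line, against a median of 75 bp, and 9.67% of all such pairs were at least as far apart. The FLAG peak of the Nanog line (168592322-168592980) lay within the Sin3a peak of the Sin3a line (168592308-168592986), and the 2 lists come from different lines. Whether the proteins bound at separate places was not tested. Site 4 (168590456-168590747), 2.19 kb away, held a FLAG peak of the Nanog line (fold 3.69, 23 fragments) and a Sin3a peak of the Sin3a line (fold 4.20, 37 fragments) with summits 27 bp apart, and no peak of the Nanog + Sin3a line.

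Site 3 of Sall4 (168568200-168568607) was the strongest FLAG site of the window in the Nanog + Sin3a line, with a fold of 4.62 and 35 fragments (24.4 to 48.7), against 3.69 and 23 fragments (14.6 to 34.5) in the Nanog line. The ratio of scaled pileups was 1.28 (0.737 to 2.27), an interval that included 1. Site 2 (168566819-168567027), 1.44 kb away, held a Sin3a peak of the Sin3a line alone, with a fold of 3.54, 31 fragments and a −log10 q of 4.49. Site 1 (168559531-168559974) held a FLAG peak of the Nanog line alone, with a fold of 4.91, 31 fragments and a −log10 q of 9.15.

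Added Sin3a was compared with Nanog alone for the FLAG sites as a whole. The Nanog line's FLAG list held a counterpart of each of the 7 FLAG peaks found with added Sin3a (Wilson interval 64.6 to 100%), against 79.7% of all FLAG peaks found there. In the Nanog line, 7 of 11 FLAG peaks overlapped one of the Nanog + Sin3a line, or 63.6% (35.4 to 84.8%), against 74.2% of its whole list. The 4 peaks without a counterpart, at Tfcp2l1 sites 2 and 6 and Sall4 sites 1 and 4, had −log10 q values of 3.66, 2.14, 9.15 and 4.45. Among peaks of the Nanog line with a −log10 q of 2 to 10, a range chosen after the values were seen, 2 of 6 in the windows and 54.1% of the whole list had a counterpart. The scaled pileup was lower in the Nanog + Sin3a line at 4 of the 7 shared sites and higher at 3. Over all matched FLAG pairs the median ratio was 0.920, so most pairs were lower in that line too. None of the 7 was at least 1.5-fold lower by this measure, against 6.33% of all pairs. By the ratio of the authors' folds, Tfcp2l1 site 5 was more than 1.5-fold lower in the Nanog + Sin3a line, at 0.547. The share of all pairs this low by folds was not counted. By scaled pileup, 7.24% of all pairs had a ratio no higher than that of this site. Its local background was 7 in the Nanog + Sin3a line and 5.43 in the Nanog line. The ratio of folds was 0.742 or higher at the other 6 sites. The interval of the ratio lay above 1 at Tfcp2l1 site 1 and included 1 at the other 6 sites.

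**Figure D3:**
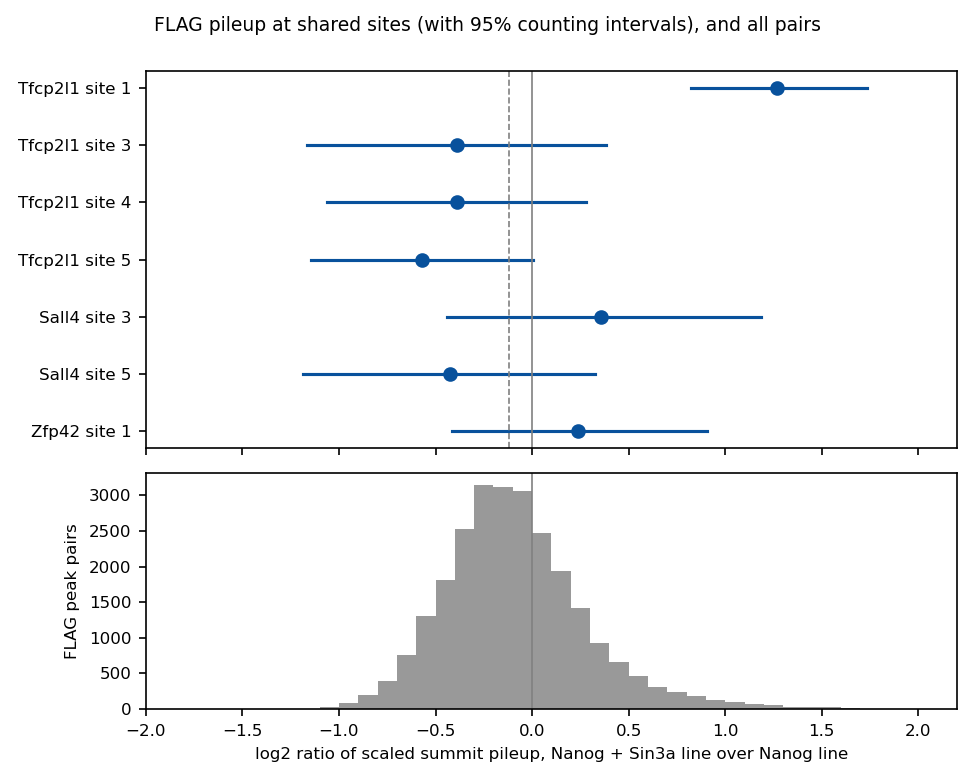
Upper panel, log2 ratio of the scaled FLAG summit pileup in the Nanog + Sin3a line over the Nanog line at the 7 FLAG sites found in both (points) with 95% intervals for counting error (lines), a solid line at no difference and a dashed line at the median of all pairs; lower panel, number of the 25543 matched FLAG pairs by the same ratio. Tfcp2l1 site 1, at a ratio of 2.41, is the one site whose interval excludes 1.

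Added Nanog was compared with Sin3a alone for the Sin3a sites. With added Nanog, 1 of 2 Sin3a peaks had a counterpart in the Sin3a line, against 80.4% of all such peaks. In the Sin3a line, 1 of 4 Sin3a peaks had a counterpart in the Nanog + Sin3a line, or 25% (4.56 to 69.9%), against 84.2% of its whole list. The shared site was Tfcp2l1 site 5, and the 3 without a counterpart were Sall4 sites 2, 4 and 5, with −log10 q values of 4.49, 6.98 and 8.33. The difference from the whole list thus rested on the Sall4 window: without it the share was 100%, from 1 peak. The interval around 25% treats peaks of the same window as independent, and the difference was not tested. Weaker peaks had fewer counterparts in general: among Sin3a peaks of the Sin3a line with a −log10 q of 4 to 9, a range chosen after the values were seen to take in these 4 peaks, 72.1% of 5283 overlapped. The lists were called separately, so a missing peak does not show that the protein was absent.

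Co-occupancy with Sin3a was asked of the FLAG sites. In the Nanog + Sin3a line 1 of the 7 FLAG peaks overlapped a Sin3a peak of the same line, or 14.3% (2.57 to 51.3%), against 42.2% of its whole list. Across the single-transgene lines 3 of the Nanog line's 11 FLAG peaks overlapped a Sin3a peak of the Sin3a line, or 27.3% (9.75 to 56.6%), against 41.8%. In the other direction, FLAG of the same line was found at 1 of 2 Sin3a peaks in the Nanog + Sin3a line, against 80.3%, and FLAG of the Nanog line at 3 of 4 Sin3a peaks in the Sin3a line, against 88.5%. Each FLAG interval was wide and included the share of the whole list. The intervals treat neighbouring peaks of the same window as independent, and a difference from the whole list was not tested. The lists come from separate precipitations, and binding of both proteins to the same DNA molecule was not measured.

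By median fold the FLAG peaks of the windows lay near the middle of their lists, but single peaks were widely spread. They ranked from 393 to 32981 of 36286 in the Nanog + Sin3a line and from 4945 to 38029 of 38485 in the Nanog line. The median fold was 4.54 in the Nanog + Sin3a line, 0.959 times the median of its whole list, and 4.91 in the Nanog line, 1.03 times that of its list. The folds ran from 3.12 to 13.1 in the Nanog + Sin3a line and from 2.62 to 8.25 in the Nanog line, with 3 of 7 and 5 of 11 peaks in the stronger 50% of their lists. All Sin3a peaks of the windows lay in the weaker 50% of their lists. Their median fold was 3.03 in the Nanog + Sin3a line, 0.655 times the median of its list, and 3.997 in the Sin3a line, 0.847 times that of its list. The median width of the Sin3a peaks was 278.5 bp in the Nanog + Sin3a line, against 471 bp over its list. In the Sin3a line it was 345 bp, against 498 bp. The widths ran from 261 to 296 bp in the Nanog + Sin3a line and from 209 to 679 bp in the Sin3a line. The widest, at Sall4 site 5, exceeded the median of its list. Widths were not compared with those of equally weak peaks.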

How the data were processed

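ChIP-seq peak lists of 4 groups of 2 replicates were used. The 1 input and the 1 IgG sample were not analysed here. Per the submitters' processing notes, the build was mm9 and the tools were FastQC 0.10.1, Bowtie 1.0.0 and SAMtools 0.1.19. The sources used here name no peak caller and do not say whether replicates were pooled. Each deposited peak has a score equal to 10 times its −log10 q without decimals (100% of peaks), a fold enrichment, which is a ratio over the expected background, and −log10 p and −log10 q values, as tested on the values. All are the authors' own, and peaks were ranked by −log10 q within a list.

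The 6 windows, the members and the lists compared were chosen with earlier results of these data known. Peaks were merged by 1 shared base. Windows of the same length were laid end to end from the first to the last peak of each chromosome. The values matched a fold of (scaled pileup + 1) / (background + 1) and a Poisson tail for the p-value, so the whole number of ChIP fragments over a summit could be recovered. Exactly 1 number was found for 99.5% and 98.9% of the FLAG peaks in the Nanog + Sin3a and Nanog lines, and for 99.5% and 99.9% of the Sin3a peaks in the Nanog + Sin3a and Sin3a lines, at a tolerance of 0.01 fragments. Pileups were scaled by 0.731 and 0.868 for FLAG and by 0.772 and 0.700 for Sin3a, in the same order, also read from the values. Comparing pileups between lines rests on this scaling. Read totals were not known, so depth enters only through the fragment numbers, from 23 to 160 over the member summits. The overlap and recovery code was tested on simulated data. Shares have 95% Wilson intervals, fragment numbers exact Poisson intervals and ratios exact conditional intervals.

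Described in full were the strongest site of each window in each list and sites in all 4 lists. Sites in 1 list only, or in 1 line only for an antibody, were to be described in full where the −log10 q reached 10, which none did. Gene names of neighbours came from the RefSeq table of GRCm38.p6, of which no coordinates were set beside peaks. Other pluripotency genes, and genes with a like pattern, were to be counted with an annotation of mm9 and were not analysed here. Tools were SciPy 1.17.1, pandas 2.3.3, Matplotlib 3.10.9 and NumPy 2.4.6, under Python 3.11.15. Coordinates are 1-based.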

Additional observations from a re-analysis of the deposited data

How the results depend on the processing

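No paired analysis was possible because the replicates of a group share 1 list, and no replicate could be left out. Of 242 alternative values, 210 stayed within 1.5 times the main count or ratio or within the interval of the main share. Many of these could not move. The Esrrb, Tbx3 and Prdm14 windows held no peak, so leaving 1 of them out changed no peak count, share or ratio. The intervals of the shares were also wide, as for 1 of 2 peaks (9.45 to 90.5%), so the tally is no measure of stability. Only thresholds, the choice of window and the widest windows moved the other 32 values, and they do so by leaving in fewer or more peaks. At a −log10 q of 5 or more, FLAG peaks in the Nanog line numbered 7 and Sin3a peaks in the Nanog + Sin3a line 1, which overlapped both a FLAG peak of its line and a Sin3a peak of the Sin3a line (100% in each case), and 2 regions held both antibodies. At 10 or more, 3 FLAG peaks were left in the Nanog + Sin3a line and 5 in the Nanog line, in 5 regions, with 0 Sin3a peaks in either line, so that 0 regions held both antibodies, 0 held all 4 lists and 0% of FLAG peaks in either comparison overlapped Sin3a. With the top 17168 peaks of each list, FLAG peaks numbered 3 in the Nanog + Sin3a line and 5 in the Nanog line, 2 regions held both antibodies and 3 held FLAG without Sin3a. Without the Tfcp2l1 window, FLAG peaks numbered 3 in the Nanog + Sin3a line and 5 in the Nanog line and Sin3a peaks in the Nanog + Sin3a line 0. The share of FLAG peaks at Sin3a in the Nanog + Sin3a line was then 0%, and that of Sin3a peaks of the Sin3a line found in the Nanog + Sin3a line 0%. Without the Sall4 window, 7 FLAG peaks were left in the Nanog line and 1 Sin3a peak in the Sin3a line, and that peak overlapped both FLAG and the other Sin3a list (100% each). Windows widened by 25 kb left 2 windows empty, those of Esrrb and Tbx3. Windows widened by 100 kb, a setting chosen after the data were seen like the counts without a window, held 14 FLAG peaks in the Nanog + Sin3a line and 21 in the Nanog line, 4 Sin3a peaks in the Nanog + Sin3a line and 7 in the Sin3a line, and 1 window, that of Tbx3, stayed empty. With 23 to 60 fragments over most summits, ratios near 1 could not be told from 1 at this depth.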
